A study of Mus musculus with 6 samples.

Results

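The genes described here are 35 named genes of glycolysis and of the response to low oxygen, taken by their symbols from the 19350 genes tested. They were 4 glucose and lactate transporters, 9 enzymes of upper glycolysis, 8 enzymes of lower glycolysis, 4 genes of the lactate and pyruvate branch, the oxygen-regulated factor Hif1a with 2 of the hydroxylases that control it, and 7 other genes known as targets of that factor. Tissue was cut from mouse embryos at embryonic day 9.5 and held the front part of the presomitic mesoderm with somites I-IV, the newest ones, from Paraxis-/- embryos and from WT embryos, with C57BL/6J named as the strain of both. Paraxis is the other name of Tcf15, a helix-loop-helix transcription factor of the paraxial mesoderm. The labels name no treatment, transgene or Cre, and do not describe the allele further. A pool combined the tissue of 5 embryos, and 3 Paraxis-/- pools were each hybridised together with 1 of 3 WT pools on two-colour Agilent arrays, once in each dye orientation, which gave 6 arrays.

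Values below are log2 ratios of Paraxis-/- over WT, so a positive ratio means a higher signal in Paraxis-/- tissue. Each pair of pools carries the letter of its WT pool, A, B or C, and a pair's ratio is the mean of its dye-swapped arrays, so the replicate is the pair (n = 3). The labels conflict on which arrays of slide 2 belong together: the titles were followed, while the descriptions of the dye swaps join the arrays of pairs B and C crosswise. The mean over pairs and the sign on each array do not depend on this, but every value given for pair B or pair C, every pool level in them and every SE and p-value does. Paired by description, 15 of the 35 genes had 1 sign in all pairs, against 12 by title, and the sign pattern of 5 genes differed. For Hk1, Ldhb, Aldoc and Ddit4, slide 2 arrays joined by title gave close ratios, and those joined by description did not. By title, Hk1 gave 0.08 and 0.24 on the arrays of pair B and -0.73 and -0.69 on those of pair C. Genes whose ratio follows the dye, such as Eno1, cannot show this. All 35 genes gave a spot well above its local background in all 6 measurements of each genotype. They were covered by 64 probes, of which 61 passed the filter on dim spots. 16 of the genes had a single probe. The targeted gene checked the labels, as Tcf15 had log2 ratios of -5.23, -5.48 and -5.52 in pairs A, B and C, a mean of -5.41 ± 0.09 (SE), which is 42.5-fold lower in Paraxis-/- pools (limma adjusted p = 0.000581).

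Slide 1 carried pair A and slide 2 the other pairs. Pair A stood apart in saturation and in several lists of cell type markers. Between 79 and 486 spots per channel were saturated on slide 1 and 0 on slide 2, and 8 of the 35 genes were among the saturated ones. The 7 markers of the posterior presomitic mesoderm and tailbud had a median ratio of 0.89 in pair A, while pair B had -0.16 and pair C 0.06. Their summed linear signal spanned 7600 to 19205 in Paraxis-/- pools and 4595 to 11358 in WT pools. The 10 primitive blood markers all had positive mean ratios, with medians of 0.41, 1.05 and -0.09 in the 3 pairs. Their summed signal spanned 162142 to 245483 in Paraxis-/- pools and 95946 to 163422 in WT pools, and no marker of either list lacked a clear spot in either genotype. The 11 paraxial mesoderm markers tested had a median ratio of -0.24, and Tcf15 was the 1 marker past the threshold. In pairs A, B and C, median ratios were -0.36, 0.13 and 0.27 for neural tube markers and -0.52, 0.12 and -0.035 for muscle markers. Endothelium markers had medians of -0.21, 0.14 and 0.06, so these lists were lowest in pair A.

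Glycolysis splits glucose into pyruvate and yields ATP without oxygen. Embryonic presomitic mesoderm is known for a high glycolytic rate that declines as cells mature into somites. The factor HIF, whose alpha subunit is encoded by Hif1a, is kept low in the presence of oxygen by prolyl hydroxylases of the Egln family, and when oxygen is scarce it binds hypoxia response elements and switches on glucose transporters, most glycolytic enzymes and genes of vessel growth, mitophagy and collagen modification.

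The core of a hypoxia response element is written ACGTG or GCGTG. Promoters are shown for the 4 genes whose ratio was positive on all 6 arrays and for Egln1, the hydroxylase gene with a negative mean ratio. Each run holds the 250 bases before and the first 50 bases of the gene, 5′ to 3′ on the gene's strand, from RefSeq on GRCm38.p6, and capitals mark a core on either strand. They lie at chr10:59951721-59952020 (Ddit4, minus strand), chr11:54100674-54100973 (P4ha2, plus), chr12:54203825-54204124 (Egln3, minus), chr7:110627407-110627706 (Adm, plus) and chr8:124949205-124949504 (Egln1, minus).
Ddit4: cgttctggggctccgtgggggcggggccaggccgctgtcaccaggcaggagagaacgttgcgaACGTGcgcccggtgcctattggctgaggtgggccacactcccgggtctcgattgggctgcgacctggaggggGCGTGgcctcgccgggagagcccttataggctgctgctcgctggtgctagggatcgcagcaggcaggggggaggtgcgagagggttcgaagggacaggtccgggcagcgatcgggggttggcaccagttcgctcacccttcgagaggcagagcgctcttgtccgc
P4ha2: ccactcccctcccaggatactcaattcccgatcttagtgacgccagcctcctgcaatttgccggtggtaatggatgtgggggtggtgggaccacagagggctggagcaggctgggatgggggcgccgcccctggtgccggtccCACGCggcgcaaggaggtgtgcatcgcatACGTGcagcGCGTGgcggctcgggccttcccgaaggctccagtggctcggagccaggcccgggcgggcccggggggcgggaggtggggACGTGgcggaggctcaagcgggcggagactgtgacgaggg
Egln3: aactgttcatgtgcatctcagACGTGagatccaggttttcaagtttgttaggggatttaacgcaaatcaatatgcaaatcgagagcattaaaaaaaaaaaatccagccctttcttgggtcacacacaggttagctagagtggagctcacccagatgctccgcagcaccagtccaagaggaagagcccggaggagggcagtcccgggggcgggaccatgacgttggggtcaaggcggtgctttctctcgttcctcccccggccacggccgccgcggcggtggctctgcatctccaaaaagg
Adm: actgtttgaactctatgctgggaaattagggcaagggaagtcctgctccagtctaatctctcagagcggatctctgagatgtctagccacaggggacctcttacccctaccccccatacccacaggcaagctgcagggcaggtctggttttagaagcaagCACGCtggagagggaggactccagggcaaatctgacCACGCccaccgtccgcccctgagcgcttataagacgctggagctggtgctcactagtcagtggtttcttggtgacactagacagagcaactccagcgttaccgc
Egln1: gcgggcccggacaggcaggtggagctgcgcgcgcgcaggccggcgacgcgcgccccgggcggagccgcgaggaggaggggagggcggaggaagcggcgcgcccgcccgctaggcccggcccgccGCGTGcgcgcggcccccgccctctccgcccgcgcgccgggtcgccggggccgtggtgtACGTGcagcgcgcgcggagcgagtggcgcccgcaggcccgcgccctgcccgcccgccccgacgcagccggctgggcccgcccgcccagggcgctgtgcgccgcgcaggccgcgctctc

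The Ddit4 window held ACGTG 187 bases and GCGTG 115 bases before the start. The P4ha2 window held 4 cores, the Egln3 window 1 and the Adm window 2, those of Adm both GCGTG on the opposite strand, 90 and 54 bases before the start. The Egln1 window held 1 of each core as well. Windows were found for 33 of the 35 genes, and not for Ndrg1 and Slc2a3. ACGTG was present for 66.7% of the 33 genes and for 21.8% of the 27025 genes of the promoter table, and GCGTG for 66.7% and 35.2%. The E-box CACGTG, which holds ACGTG on both strands, was present for 15.2% of the 33 genes and 8.1% of all. A gene was counted where any of its windows held the core, and some genes had several windows. Counted by window, ACGTG was in 52.2% of the 46 windows of these genes and 19.6% of all 32851 windows. GCGTG was in 58.7% and 32.4%. The windows of these genes were also richer in G and C, with a median of 62.2% against 52.7% over all windows, and the share of cores was not corrected for this. By group, 52.6% of the 19 glycolytic and lactate dehydrogenase genes and 75.0% of the 8 hypoxia targets with a window held ACGTG. A match describes letters in this window and does not show binding.

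None of the 35 genes passed the threshold of an adjusted p under 0.05, and the smallest adjusted p among them was 0.849, for Ddit4 (limma, Benjamini-Hochberg over all 19350 genes). Over all genes 4 passed, which is 0.0207%. Genes of this set had small ratios, but their median size was 0.14, against 0.07 over all genes tested, which were not matched to the set in signal level. Their mean log2 ratios ran from -0.35 to 0.57 with a median of 0.07, against a median of 0.00 over all genes tested, and 6 of them differed by at least 1.2-fold (2 higher and 4 lower in Paraxis-/- pools), where 6.29% of all genes did (2.94% higher and 3.35% lower). At an unadjusted p under 0.05, 8 of the 35 genes were called (22.9%), 5 higher and 3 lower, beside 5.05% of all genes (2.33% higher and 2.72% lower). The ratio had 1 sign on all 6 arrays for 5 of them (4 positive and 1 negative), and for 6.28% of all genes. The signals of Paraxis-/- and WT pools did not overlap for 5 of them (2 higher and 3 lower, among them Aldoa with saturated spots in pair A), and for 6.01% of all genes (3.12% higher and 2.89% lower). As the tissue was measured in bulk, fewer cells of a type and less RNA per cell cannot be told apart.

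**Figure D1:**
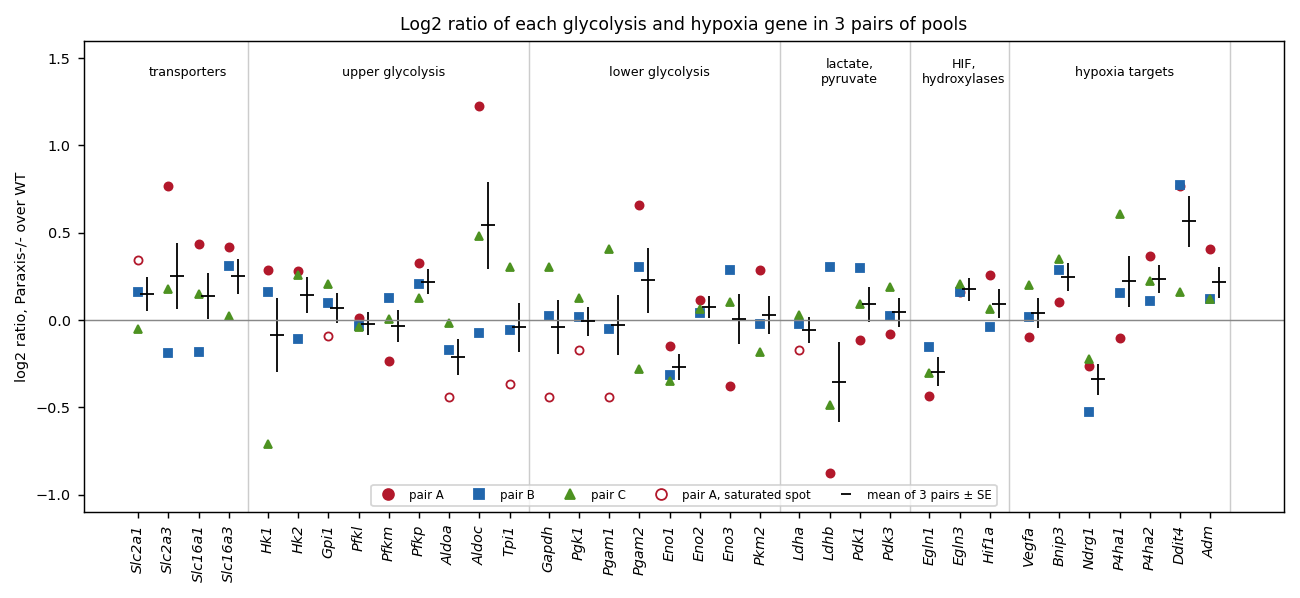
Log2 ratio of Paraxis-/- over WT (y axis) for each of the 35 genes (x axis, ordered by role), with 1 point per pair of pools, open circles where a pair A spot was saturated, and the mean of 3 pairs with its SE beside them. Ddit4 has the highest mean, 0.57, and Ldhb the lowest, -0.35, and the 3 points of Egln3 and Ndrg1 lie on 1 side of the zero line.

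The hypoxia targets, 9 with Egln3 and Pdk1 counted among them, differed from the enzymes in their medians. Egln1, the other hydroxylase gene of the set, was counted in neither group. Its ratio was negative in all 3 pairs (mean -0.30), so the values below depend on this grouping. Of the 9 hypoxia targets, 8 had a positive mean ratio and 6 had the same sign in all 3 pairs (5 positive, 1 negative), where 25.7% of all genes kept their sign (13.5% positive and 12.2% negative). Their median ratio was 0.22, and 0.10, 0.16 and 0.20 in pairs A, B and C. None of their spots was saturated. The 19 enzymes had a median of -0.02, with -0.15, 0.02 and 0.06 in the 3 pairs. 4 of the 19 kept their sign, 2 in each direction, among the negative ones Aldoa with saturated spots in pair A. Of the 12 enzymes with no saturated spot, 3 kept their sign, 2 positive and 1 negative. Without the 7 enzymes that had a saturated spot, the median of the remaining 12 was 0.02, with 0.20, 0.08 and -0.02 in pairs A, B and C. The median of these 12 enzymes thus lay above that of the hypoxia targets in pair A, and below it in pairs B and C. The difference between hypoxia targets and enzymes was not tested, since genes are not replicates.

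**Figure D2:**
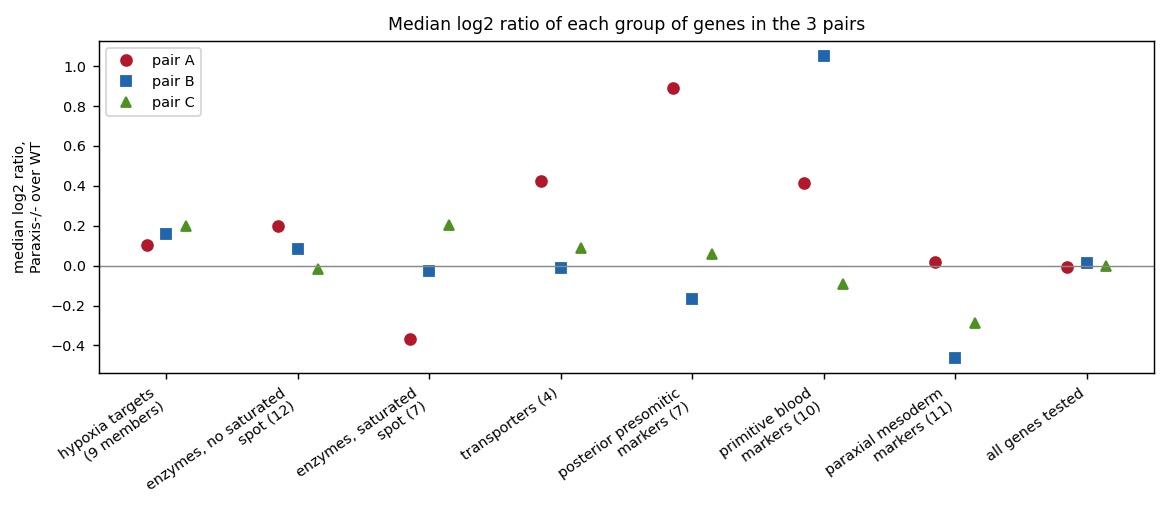
Median log2 ratio of Paraxis-/- over WT (y axis) in each pair of pools for groups of these genes, 3 lists of cell type markers and all genes tested. The hypoxia targets lie at 0.10, 0.16 and 0.20 in pairs A, B and C, and enzymes without a saturated spot at 0.20, 0.08 and -0.02. Primitive blood markers lie between -0.09 and 1.05.

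Ddit4, which encodes an inhibitor of mTOR signalling induced by low oxygen and other stress, had the largest difference. Its normalised log2 signal was 14.52, 14.58 and 14.03 in the Paraxis-/- pools of pairs A, B and C, against 13.75, 13.81 and 13.87 in the WT pools. All Paraxis-/- pools lay above all WT pools, and the Paraxis-/- pool of pair C lay nearest to them. Paired by description, the Ddit4 ratios of slide 2 were 0.48 and 0.46, beside 0.77 and 0.16 by title. The ratios were 0.77, 0.77 and 0.16, with a mean of 0.57 ± 0.15 (SE), or 1.48-fold higher (95% confidence interval of the log2 ratio 0.19 to 0.94). Its unadjusted limma p was 0.0121 and its adjusted p 0.849. The sign was positive on 6 of 6 arrays, as it was for 3.73% of all genes. The primitive blood markers were likewise lowest in pair C. The 7 tested genes of a list that respond to dissection had a median of 0.04. Of these, 2 were called higher at an unadjusted p under 0.05 (limma), where 2.33% of all genes were. The immediate early gene Egr1 had ratios of 0.54, 0.49 and 0.17, lowest in pair C, while Atf3 had 0.11, 0.21 and 0.50, highest in pair C. The part of blood or of dissection in the Ddit4 ratio was not tested.

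Ndrg1, a gene induced by HIF and by differentiation, was the exception among the 9 genes counted as hypoxia targets. Its log2 signal was 9.66, 9.31 and 9.47 in Paraxis-/- pools, against 9.92, 9.84 and 9.70 in WT pools. The pools did not overlap, and the ratio was negative on 6 of 6 arrays, which held for 2.55% of all genes. The pair ratios of -0.26, -0.53 and -0.22 averaged -0.34 ± 0.09 (SE; 1.26-fold lower, unadjusted p = 0.013, adjusted p = 0.867).

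Bnip3, a mitochondrial protein of mitophagy, and P4ha2, a catalytic subunit of the enzyme that hydroxylates collagen, had positive ratios in every pair. Bnip3 had log2 signals of 12.64, 12.82 and 13.11 in Paraxis-/- pools and 12.54, 12.54 and 12.76 in WT pools. Its mean ratio was 0.25 ± 0.08 (SE; adjusted p = 0.937). P4ha2 had log2 signals of 11.368, 11.791 and 11.926 in Paraxis-/- pools and 11.001, 11.680 and 11.703 in WT pools, with a mean ratio of 0.23 ± 0.08 (SE; adjusted p = 0.937). For both, the genotypes overlapped across pairs because pairs differed in level, while within each pair the Paraxis-/- pool was the higher one. The paralogue of P4ha2, P4ha1, had ratios of -0.10, 0.16 and 0.61, and a further P4ha1 probe averaged -0.01, so the P4ha1 probes disagreed.

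Adm, which encodes the vasoactive peptide adrenomedullin, was positive on all 6 arrays, with pair ratios of 0.41, 0.12 and 0.12 (mean 0.22 ± 0.09, SE; adjusted p = 0.952). Its log2 signal was low, 7.55, 7.13 and 7.21 in Paraxis-/- pools and 7.15, 7.01 and 7.09 in WT pools. Probes of the set that failed the filter on dim spots averaged 6.3 to 6.6. The mean Adm ratio was 0.47 with Agilent's processed signals and 0.46 with the deposited log ratios. Vegfa, the main growth factor of endothelium, did not share this. Its ratios were -0.10, 0.02 and 0.20, and its 4 probes averaged between 0.00 and 0.11. Pdk1, a kinase that inhibits pyruvate dehydrogenase and a HIF target, averaged 0.09, with -0.12, 0.30 and 0.09 in the pairs. Pdk3, of the same kinase family, averaged 0.04.

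The hydroxylases that mark HIF for degradation had ratios of opposite sign. Egln1 had log2 signals of 9.92, 9.46 and 9.29 in Paraxis-/- pools, against 10.35, 9.61 and 9.59 in WT pools. It was the lower one in every pair, on 5 of 6 arrays, with a mean ratio of -0.30 ± 0.08 (SE; 1.23-fold lower, unadjusted p = 0.0165, adjusted p = 0.919). Another Egln1 probe gave -0.28, -0.08 and -0.11. Egln3, itself a HIF target, had log2 signals of 8.496, 8.517 and 8.620 in Paraxis-/- pools, against 8.335, 8.357 and 8.413 in WT pools. These pools did not overlap, and the 3 pair ratios of 0.16, 0.16 and 0.21 were the closest together among the genes called (mean 0.18 ± 0.06, SE; adjusted p = 0.952). Within a pair, the ratio of Egln1 minus that of Egln3 was -0.60, -0.31 and -0.51. Hif1a itself had log2 signals of 11.72, 11.66 and 11.67 in Paraxis-/- pools and 11.46, 11.70 and 11.61 in WT pools, and its mean ratio was 0.09 ± 0.08 (SE; adjusted p = 0.955). The Hif1a pools overlapped.

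**Figure D3:**
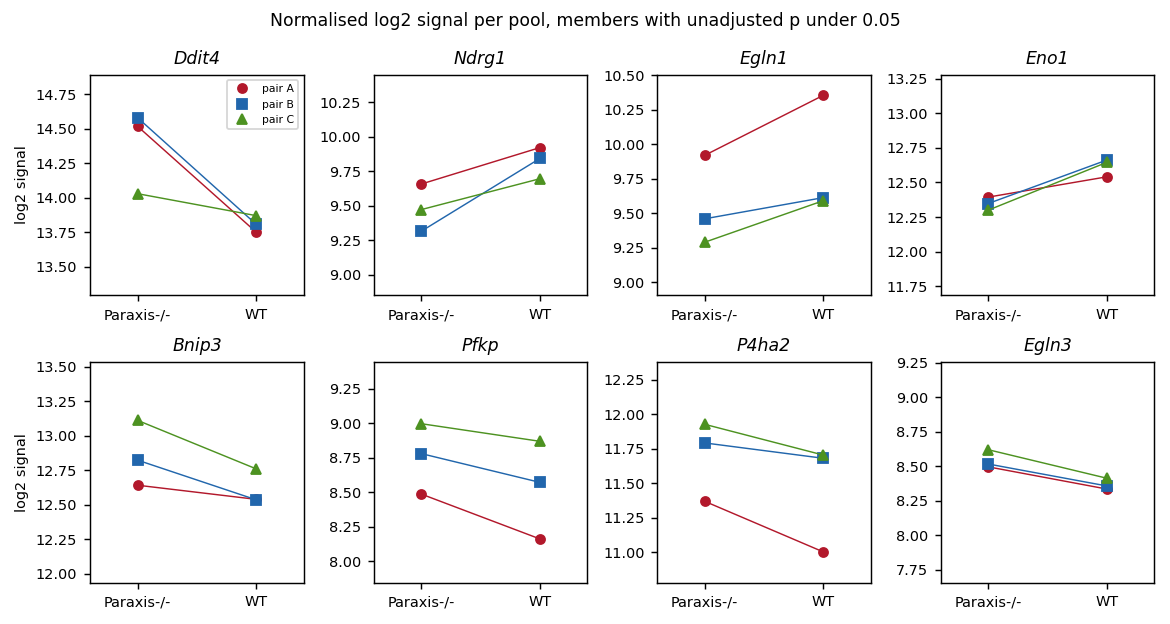
Normalised log2 signal (y axis, spanning the same 1.6 units in each panel) of the 8 genes with an unadjusted p under 0.05, with Paraxis-/- pools left, WT pools right and a line joining the pools of a pair. Pools of Ddit4, Ndrg1, Eno1 and Egln3 do not overlap between genotypes, and those of Egln1, Bnip3, Pfkp and P4ha2 overlap although every line slopes the same way within a panel.

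All 4 transporters had positive mean ratios with a median of 0.20, but the pairs differed, with medians of 0.43, -0.01 and 0.09 in pairs A, B and C. Slc16a3, which exports lactate, was the only transporter gene with 1 sign in all 3 pairs, and was positive on 5 of 6 arrays. Its log2 signal was 15.09, 15.25 and 15.37 in Paraxis-/- pools and 14.67, 14.94 and 15.34 in WT pools (mean ratio 0.25 ± 0.10, SE; adjusted p = 0.952). Slc2a1, the widespread basal glucose transporter, had 15.60, 16.16 and 16.08 in Paraxis-/- pools and 15.26, 16.00 and 16.13 in WT pools, a mean ratio of 0.15 ± 0.10 (SE; adjusted p = 0.953), with a saturated spot on 1 pair A array. With that spot left out the mean ratio was 0.06, but pair A then rested on 1 dye orientation, so the dye did not cancel. With Paraxis-/- in Cy5 the Slc2a1 arrays of pairs A, B and C gave 0.61, 0.54 and 0.43. With Paraxis-/- in Cy3 they gave 0.07, -0.22 and -0.53, so the sign turned with the dye in pairs B and C. On slide 2 alone, where both orientations remained, the mean Slc2a1 ratio was 0.05. The glucose transporter gene Slc2a3 had ratios of 0.77, -0.19 and 0.18, and the lactate transporter gene Slc16a1 had 0.44, -0.18 and 0.15. On slide 2 alone Slc2a3 averaged -0.005 and Slc16a1 -0.015, so their positive means rested on pair A. Markers of the posterior presomitic mesoderm were highest in pair A as well, and those of neural tube, muscle and endothelium were lowest there. The part of these tissues in the transporter ratios was not tested.

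In upper glycolysis, which turns glucose into triose phosphates, 1 of 9 genes was called at an unadjusted p under 0.05, where 5.05% of all genes were. This was Pfkp, the platelet type of phosphofructokinase, which catalyses the committing step. Its log2 signal was 8.486, 8.779 and 8.995 in Paraxis-/- pools, against 8.161, 8.570 and 8.868 in WT pools (mean ratio 0.22 ± 0.07, SE; 1.17-fold higher, adjusted p = 0.937). A further probe averaged 0.24 and another 0.06. The liver type Pfkl averaged -0.02 and the muscle type Pfkm -0.03, and the ratio of Pfkp minus that of Pfkl was 0.31, 0.24 and 0.17 in the pairs.

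Aldoc, an aldolase known from brain, had a mean ratio of 0.54 ± 0.25 (SE; adjusted p = 0.952), but its pairs disagreed. Its log2 signal was 10.95, 9.86 and 10.15 in Paraxis-/- pools, against 9.73, 9.93 and 9.67 in WT pools. The Paraxis-/- pool of pair A stood far above the others, and another probe gave 1.01, -0.03 and 0.24. Paired by description, the Aldoc ratios of slide 2 were 0.18 and 0.22. The hexokinases, which phosphorylate glucose, also differed between pairs. Hk2 had ratios of 0.28, -0.11 and 0.26. Hk1 had 0.29, 0.16 and -0.71, while its other 4 kept probes lay between -0.16 and 0.08 in pair C. Their mean log2 signals were dim, 6.7 to 7.4, against 11.5 in Paraxis-/- pools for the probe used. They therefore cannot show whether the low value is particular to that probe.

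The remaining upper enzymes had saturated spots on slide 1. Gpi1, the glucose phosphate isomerase gene, Aldoa, the main aldolase gene, and Tpi1, the triose phosphate isomerase gene, were affected in pair A. So were Gapdh, Pgk1 and Pgam1 of lower glycolysis and the lactate dehydrogenase gene Ldha. Where both channels were saturated on both pair A arrays, as for both Aldoa probes, 1 Gapdh probe and Pgam1, the array ratios were 0.22 with Paraxis-/- in Cy3 and -1.11 with Paraxis-/- in Cy5 whatever the gene, and the pair A ratio was -0.44 each time. Those pair A values are the ratio of 2 ceilings and hold no reading of the genes.

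Read on pairs B and C alone, the 8 genes with saturated spots had mean ratios between -0.09 and 0.18. Aldoa had log2 signals of 16.63 and 16.65 in the Paraxis-/- pools of pairs B and C, against 16.80 and 16.67 in the WT pools, and its mean ratio there was -0.09. The other Aldoa probe gave 0.01 in pair B and 0.21 in pair C, so the Aldoa probes disagreed in sign. Pgam1, a phosphoglycerate mutase gene, had 16.43 and 16.77 in Paraxis-/- pools, against 16.49 and 16.36 in WT pools, with a mean ratio of 0.18. Gapdh, often used as a reference gene, had ratios of 0.03 and 0.30 in pairs B and C. Ldha had log2 signals of 16.65 and 16.73 in Paraxis-/- pools, against 16.68 and 16.70 in WT pools, and its ratios were -0.03 and 0.03. These pools overlapped for Pgam1 and Ldha, and none of the 35 genes passed the threshold on slide 2 alone (limma).

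**Figure D4:**
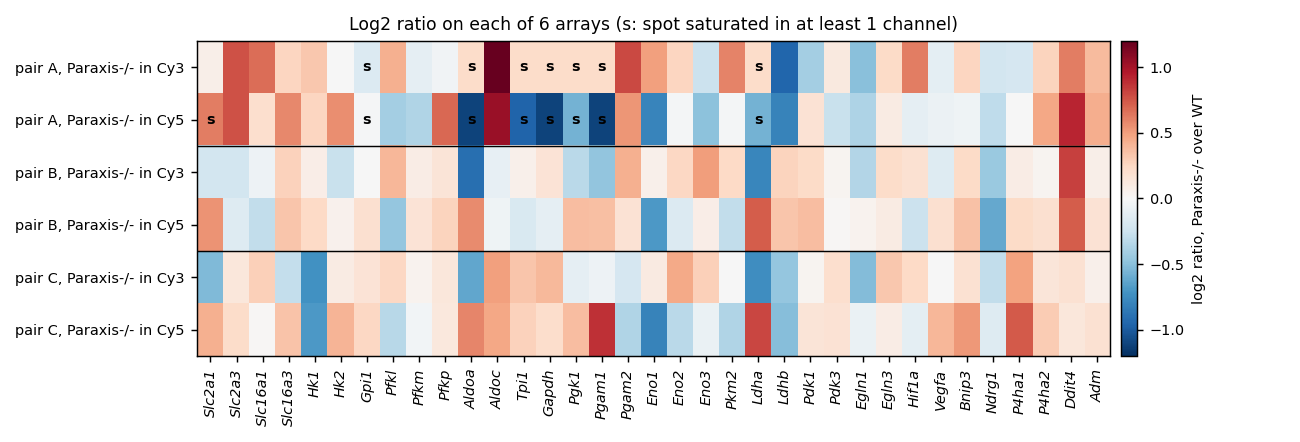
Log2 ratio of Paraxis-/- over WT (colour) of each of the 35 genes (columns) on each of 6 arrays (rows, by pair and by the dye of the Paraxis-/- RNA), with the letter s where a spot was saturated in 1 or both channels. Ddit4, Egln3, P4ha2 and Adm are positive and Ndrg1 negative on all 6 arrays. Eno1, Eno2, Pfkl and Hif1a are among the genes that turn sign with the dye in every pair. Aldoa and Pgam1, saturated in both channels, show the same pair A values.

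In lower glycolysis, which turns triose phosphates into pyruvate, Eno1 alone of 8 genes was called at an unadjusted p under 0.05 (5.05% of all genes). It encodes the widespread enolase. Its log2 signal was 12.39, 12.35 and 12.30 in Paraxis-/- pools, against 12.54, 12.66 and 12.65 in WT pools, and the pools did not overlap (mean ratio -0.27 ± 0.08, SE; 1.21-fold lower, unadjusted p = 0.0167, adjusted p = 0.919). The dye moved this probe more than the genotype did. With Paraxis-/- in Cy3 the arrays of pairs A, B and C gave 0.50, 0.06 and 0.11, and with Paraxis-/- in Cy5 they gave -0.79, -0.69 and -0.80. The mean dye effect was -0.49, the largest of the set, where the median size was 0.13 for these genes and 0.07 over all genes. The single Eno1 probe is shown because the Eno1 ratio rests on it alone. It lies at chr4:149618134-149618359 (mm9, plus strand), so its 60 bases spread over 226 bases of the genome.
Eno1: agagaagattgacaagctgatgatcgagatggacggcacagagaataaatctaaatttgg

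The other enolase genes had mean ratios under 0.1 in size. Eno2, the neuronal type, had log2 signals of 7.18, 7.14 and 7.22 in Paraxis-/- pools and 7.06, 7.09 and 7.15 in WT pools (mean ratio 0.07 ± 0.07, SE; adjusted p = 0.953). The Eno2 ratio was positive in all 3 pairs, though the pools overlapped and the sign turned with the dye in every pair. With Paraxis-/- in Cy3 the arrays of pairs A, B and C gave 0.26, 0.25 and 0.45. With Paraxis-/- in Cy5 they gave -0.02, -0.16 and -0.32. The mean ratio was 0.25 with Agilent's processed signals and 0.24 with the deposited log ratios. Eno3, the muscle type, averaged 0.00, with -0.38, 0.29 and 0.10 in the pairs. Pgam2, the muscle type of phosphoglycerate mutase, had ratios of 0.66, 0.30 and -0.28. Pkm2, the pyruvate kinase gene that ends the pathway, averaged 0.03, and its other probes averaged -0.06 each.

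Of the lactate dehydrogenase subunits, Ldhb had the lowest mean ratio of the set, -0.35 ± 0.23 (SE; adjusted p = 0.953). Its log2 signal was 11.995, 13.147 and 12.688 in Paraxis-/- pools, against 12.874, 12.846 and 13.175 in WT pools. The Paraxis-/- pool was the lower one in pairs A and C and the higher one in pair B, so the sign was not shared. Paired by description, the Ldhb ratio was negative in every pair, with -0.12 and -0.06 on slide 2. Those values average arrays of opposite sign. By title, the arrays gave 0.27 and 0.33 in pair B and -0.46 and -0.51 in pair C.

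The spread between pairs was wide beside the size of the ratios. The median size of the mean ratio was 0.14 for the 35 genes and 0.07 over all genes, while the ratios of the 3 pairs spanned a median of 0.39 per gene, against 0.26 over all genes. Neither comparison was matched for signal level. Across the 35 genes the pair ratios correlated with r of 0.19 (A with B), 0.18 (A with C) and 0.07 (B with C), and over all genes measured in 3 pairs with r of 0.11, 0.07 and 0.17. The 35 include the genes with saturated spots in pair A. Across the 27 genes with no saturated spot, r was 0.11 (A with B), 0.36 (A with C) and 0.12 (B with C). These correlations are across genes that share arrays, and describe the pairs without a test.

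Other genes of the same pathways gave no calls past the threshold either. Of 24 other genes of glycolysis and glycogen tested, 2 were higher and 2 lower at an unadjusted p under 0.05, where 2.33% of all genes were higher and 2.72% lower, and the median ratio was 0.09. The glycogen phosphorylase genes had opposite signs, Pygb with -0.77, -0.57 and -0.42 in the pairs (mean -0.58 ± 0.09, SE; adjusted p = 0.486) and Pygl with 0.30, 0.29 and 0.28 (mean 0.29 ± 0.06, SE; adjusted p = 0.736). The glycogen synthase gene Gys1 averaged -0.28 (adjusted p = 0.937). Of 7 pentose phosphate genes and 26 genes of pyruvate dehydrogenase and the citric acid cycle, 0 were called at an unadjusted p under 0.05, with medians of -0.01 and 0.01. The lowest pentose phosphate gene was Tkt, transketolase, at -0.56, with -1.43 in pair C, followed in p by Taldo1 at -0.13 and Pgls at -0.10. In the citric acid cycle group the genes smallest in p were Mdh1, with a mean ratio of 0.18, Pdhb, with a mean ratio of 0.14, and Idh3b, with a mean ratio of -0.14.

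Of 14 further HIF pathway genes, 1 was called, Hif1an, which encodes the asparagine hydroxylase that silences HIF, with a mean ratio of -0.41 ± 0.14 (SE; adjusted p = 0.937). Egln2, another hydroxylase gene, averaged -0.30 with 0.03 in pair B, and Cited2 averaged 0.15. Of 37 other known hypoxia targets tested, 4 were higher and 3 lower at an unadjusted p under 0.05, beside the same 2.33% and 2.72% of all genes, and their median ratio was 0.02, where the 9 targets above had 0.22. This list shares 4 genes with that of glycolysis and glycogen, and 2 of them, Pfkfb4 and Gys1, are counted among the calls of both. Tgfb3, a growth factor of the TGF-beta family, averaged -0.61 ± 0.08 (SE; adjusted p = 0.368). Plod1, a collagen lysine hydroxylase gene, averaged -0.68 ± 0.12 (SE; adjusted p = 0.564).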

How the data were processed

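The microarrays measured RNA of 3 pools of each genotype on 6 two-colour arrays. Per the labels, Cy3 or Cy5 was incorporated from 250 ng of RNA (integrity number 7.9 or more). The deposited scanner files hold spot intensity from Agilent Feature Extraction, version 10.7.3.1 for slide 1 and 10.5.1.1 for slide 2 per the file headers; version 8.5.1.1 is in the submitters' processing notes. The deposited value table gives each array's log10 ratio (Cy5 over Cy3), which differed from that of the scanner files by at most 5e-11.

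From the deposited files, median spot intensities were background-corrected with normexp (offset 50), normalised by loess within arrays and turned to log2 ratios in limma 3.58.1 (R 4.3.3, data.table in version 1.17.8). The 1639 control spots had no weight, and 438 to 620 outlier spots per array were left out. Probes well above background in at least 4 of 6 measurements of either genotype were kept (28415 of 41174), with the brightest probe per gene. Levels are Aquantile-normalised log2 signals of a pool. Dye-swapped arrays were paired by their titles, which the descriptions contradict for pairs B and C, and averaged. Ratios of 3 pairs were tested against 0 with lmFit and eBayes, Benjamini-Hochberg adjusted over all genes, with 18 genes measured in fewer than 3 pairs. The exact sign-flip test of 3 pairs cannot give a two-sided p under 0.25. The fit was tested on simulated data.

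Probe coordinates are those of the files (mm9). Gene names were updated through a RefSeq listing. Promoters come from RefSeq on GRCm38.p6, and exon or UTR placement of probes was not analysed here. The members and lists were chosen with earlier results of these data known. Named in full were, per role, up to 4 genes with 1 sign in all pairs and the largest mean ratio, and the gene with the brightest probe; of each other pathway list, up to 3 with the smallest p, of which 1 gene is not reported here. Alternatives covered background correction, normalization, filters, saturation, probe choice, pairing, slide and each pair left out. Nothing says whether pools of a genotype came from separate litters. The number of arrays limits the precision.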

Additional observations from a re-analysis of the deposited data

How the results depend on the processing

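Of 624 values of single genes under 18 alternatives, 618 kept their direction or stayed within the spread of pairs (direction was judged where the mean ratio was at least its SE), and none passed the threshold, the smallest adjusted p being 0.166. Below that size a gene could change sign and still be among the 618, as Hk1 did with values from -0.274 to 0.2247. Reversed were Slc2a3 at -0.0047 and Slc16a1 at -0.0147, both on slide 2 alone, which is also the value without pair A, and neither reversed under another alternative (with each pair left out, up to 0.4716 for Slc2a3 and 0.2936 for Slc16a1). The 4 genes past the threshold became 7 with Agilent's processed signals, 18 with scaling between arrays, 78 with slide as a term, 2 on slide 2 alone, 40 over 6 arrays with the pair as replicate block and 69 with no replicate block, where dye-swapped arrays of a pair correlated at 0.474. Leaving out each pair gave 0 to 2. The 8 genes at an unadjusted p under 0.05 became 5 with Agilent's processed signals, 5 with the deposited log ratios, 13 with slide as a term, 5 on slide 2 alone and 3 to 6 with each pair left out. Ddit4 and Ndrg1 were among them under 17 of 18 alternatives and Egln3 under 10. The median ratio of all 35 genes was 0.1452 with median centring and 0.0699 as reported, and that of hypoxia targets ranged from 0.1601 to 0.227 with each pair left out. The causes of these moves were not tested beyond the smaller number of pairs. With saturated spots left out, 6 of the 8 saturated genes rested on pairs B and C, while Slc2a1 and Gpi1 kept a pair A value. Pairing by description gave 10 genes at an unadjusted p under 0.05 and 0 past the threshold.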
